A study of Mus musculus with 14 samples.

Results

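The 7 genes Cdkn1a, Cdkn1b, Cdkn1c, Cdkn2a, Cdkn2b, Cdkn2c and Cdkn2d encode the inhibitors of cyclin-dependent kinases (CDKs), and they were taken by name from every table. All 7 were among the 27179 genes of the keratinocyte table and among the 24411 genes of the epidermis table, and their transcripts were 11 of the 35034 listed for epidermis. The RNA came either from keratinocytes of newborn mice, proliferating in culture, or directly from newborn epidermis. The p63beta mice carried KRT14-Cre and Trp63-Ex13fl/fl, and the p63alpha mice carried the same floxed Trp63 alleles without the recombinase, so the floxed allele is common to all groups. The KRT14 promoter drives Cre in basal keratinocytes, so cells of the epidermis outside the keratinocyte lineage would keep exon 13. There were 3 p63beta and 3 p63alpha keratinocyte libraries, and 4 p63beta and 4 p63alpha epidermis libraries. Nothing in the labels says whether libraries came from separate animals, so each p-value measures the spread between these libraries, which may be technical.

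CDK inhibitors hold back the cell cycle, and they fall into a pair of families. The CIP/KIP proteins p21 (Cdkn1a), p27 (Cdkn1b) and p57 (Cdkn1c) bind CDKs together with their cyclins, CDK2 complexes above all. The INK4 proteins p16 (Cdkn2a), p15 (Cdkn2b), p18 (Cdkn2c) and p19 (Cdkn2d) bind CDK4 and CDK6 and keep them from the D-type cyclins. In skin these inhibitors are known for the exit of keratinocytes from the cell cycle as they leave the basal layer, and p63 is known to act on some of the genes.

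Depth was 25455374 to 29229809 counted read pairs per library in p63beta keratinocytes and 20688027 to 30066041 in p63alpha keratinocytes. The totals were 23280242 to 44909629 estimated counts in p63beta epidermis and 21290068 to 34144606 in p63alpha epidermis. The epidermis columns carry no replicate number and are named here as in their headers: EP10, EP11, EP12 and KO2 are p63beta, and EP07, EP08, EP09 and WT3 are p63alpha. Trp63, the targeted gene, stood at 343, 358 and 390 CPM in p63beta keratinocyte replicates 1, 2 and 3, against 193, 179 and 179 CPM (counts scaled to library size) in p63alpha replicates 1, 2 and 3. Its log2 fold change there was 0.99, with an edgeR adjusted p of 0.0297. In epidermis Trp63 overlapped, at 545 to 765 CPM in p63beta and 259 to 631 CPM in p63alpha. The log2 fold change in epidermis was 0.55, with an edgeR adjusted p of 0.9999. The gene total does not show exon 13, but in epidermis the Trp63 transcript NM_011641 was listed at 0 in all p63beta epidermis libraries, against 37.5 to 107 TPM, a length-scaled level, in p63alpha epidermis. Another Trp63 transcript, NM_001127262, stood at 134 to 250 TPM in p63beta epidermis and at 8.01 to 23.6 TPM in p63alpha epidermis. The 7 basal keratinocyte markers (Krt5, Krt14 and others) summed to 23901 to 34037 CPM in p63beta keratinocytes and to 23470 to 36376 CPM in p63alpha keratinocytes, as the labelled cell type has. One keratinocyte library stood apart: 11 heart and skeletal muscle genes summed to 3050 CPM in p63beta replicate 3, against 110 and 203 CPM in the other two p63beta libraries and 74.0 to 244 CPM in the p63alpha libraries. In epidermis, 8 melanocyte genes summed to 338 to 506 CPM in p63beta libraries and to 134 to 291 CPM in p63alpha libraries, without overlap. The same 8 genes summed to 835 to 1025 CPM in p63beta keratinocytes and to 467 to 1637 CPM in p63alpha keratinocytes, with overlap.

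Cdkn1c, which encodes p57, was the only one of the 7 genes to pass the test, and it did so in epidermis. Its level was 92.1 CPM in EP10, 63.6 in EP11, 51.1 in EP12 and 109 in KO2 of p63beta, against 6.29 CPM in EP07, 7.07 in EP08, 13.3 in EP09 and 5.11 in WT3 of p63alpha. Every p63beta library lay above every p63alpha library, and the lowest p63beta value was well above the highest p63alpha value. Cdkn1c averaged 78.9 ± 26.2 CPM in p63beta epidermis and 7.95 ± 3.68 CPM in p63alpha epidermis (SD, n = 4 each). It rose 9.95-fold in p63beta epidermis, with a log2 fold change of 3.31 ± 0.35 (SE of the fit) and an adjusted p of 0.00397 in edgeR's quasi-likelihood test, adjusted over all genes by Benjamini and Hochberg. Of the 13796 genes tested in epidermis, 32 were called at an adjusted p under 0.05, or 0.232% (0.217% higher in p63beta), and 1 of the 6 CDK inhibitor genes tested was among them. In 1.88% of genes every p63beta library lay above every p63alpha library. The authors' deposited table gave a log2 fold change of 3.32 with an adjusted p of 2.64e-15 for Cdkn1c in epidermis; that table called 0.896% of its genes. Its column is named wild type against knockout, and it was read as p63beta over p63alpha because its positive values go with higher counts in p63beta.

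KO2 and WT3 carry another style of column name than the 6 EP libraries. With the style as a term in the fit, Cdkn1c kept its log2 fold change at 3.31, with an edgeR adjusted p of 0.0152. Over the EP libraries alone, 3 p63beta and 3 p63alpha, the log2 fold change was 2.95 ± 0.36 with an edgeR adjusted p of 0.0600, so the call was lost there. The melanocyte genes had higher sums in p63beta in these same libraries, with 8 of 8 at a positive log2 fold change, a median of 0.995 and none called; their part in the Cdkn1c result was not tested. In these bulk samples, a larger number of cells of one type cannot be told apart from more RNA per cell.

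In keratinocytes Cdkn1c was also higher in every p63beta library but did not pass the test. Its level was 6.86, 5.55 and 7.08 CPM in p63beta replicates 1, 2 and 3, against 2.24, 1.73 and 1.43 CPM in p63alpha replicates 1, 2 and 3. The groups did not overlap, and in 6.51% of the genes tested in keratinocytes every p63beta library likewise lay above every p63alpha library. The ratio of p63beta to p63alpha within each replicate number was 3.06, 3.21 and 4.96. These levels rest on 194, 140 and 202 read pairs in p63beta libraries and on 54, 52 and 30 in p63alpha libraries. The log2 fold change was 1.85 ± 0.25 (SE), or 3.60-fold, with an edgeR adjusted p of 0.121 over 13820 genes. Only 14 genes, or 0.101%, were called in keratinocytes, and none of the 6 CDK inhibitor genes tested was among them. A block for the replicate number, which treats same-numbered libraries as pairs, gave Cdkn1c an edgeR adjusted p of 0.0744 and called 37 genes. DESeq2 on the same counts gave a log2 fold change of 1.83 with an adjusted p of 3.60e-07, so the keratinocyte call turns on the tool. The authors' deposited table gave a shrunken log2 fold change of 1.21, which is not on the scale of the unshrunken values, with an adjusted p of 2.91e-07; that table called 1.5% of its genes. Without p63beta replicate 3, the library high in muscle genes, the log2 fold change was 1.77. The 7 endothelial markers summed to 14.6, 13.5 and 46.4 CPM in p63beta keratinocyte replicates 1, 2 and 3. They summed to 12.8, 6.77 and 9.18 CPM in p63alpha replicates 1, 2 and 3, with none at 0 in every library. The groups did not overlap, but the value far above the rest was that of p63beta replicate 3, the library high in muscle genes. Of 5 tested, 4 had positive log2 fold changes, with a median of 1.46 and none called, and Kdr stood at -0.10. Pecam1, an endothelial adhesion protein, had 10.9 ± 4.68 CPM in p63beta keratinocytes and 3.01 ± 1.70 CPM in p63alpha keratinocytes (SD, n = 3 each), with an edgeR adjusted p of 0.470. It was the only 1 of the 5 tested whose genotypes did not overlap. Over all genes tested in keratinocytes, 12.3% did not overlap, in either direction. The 7 hair follicle markers summed to 369 to 384 CPM in p63beta keratinocytes and 404 to 454 CPM in p63alpha keratinocytes, also without overlap. Most of these sums was Sox9, at 319 ± 28.3 CPM in p63beta and 355 ± 62.6 CPM in p63alpha, and Sox9 itself overlapped. The part of these markers in the Cdkn1c value was not tested.

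**Figure D1:**
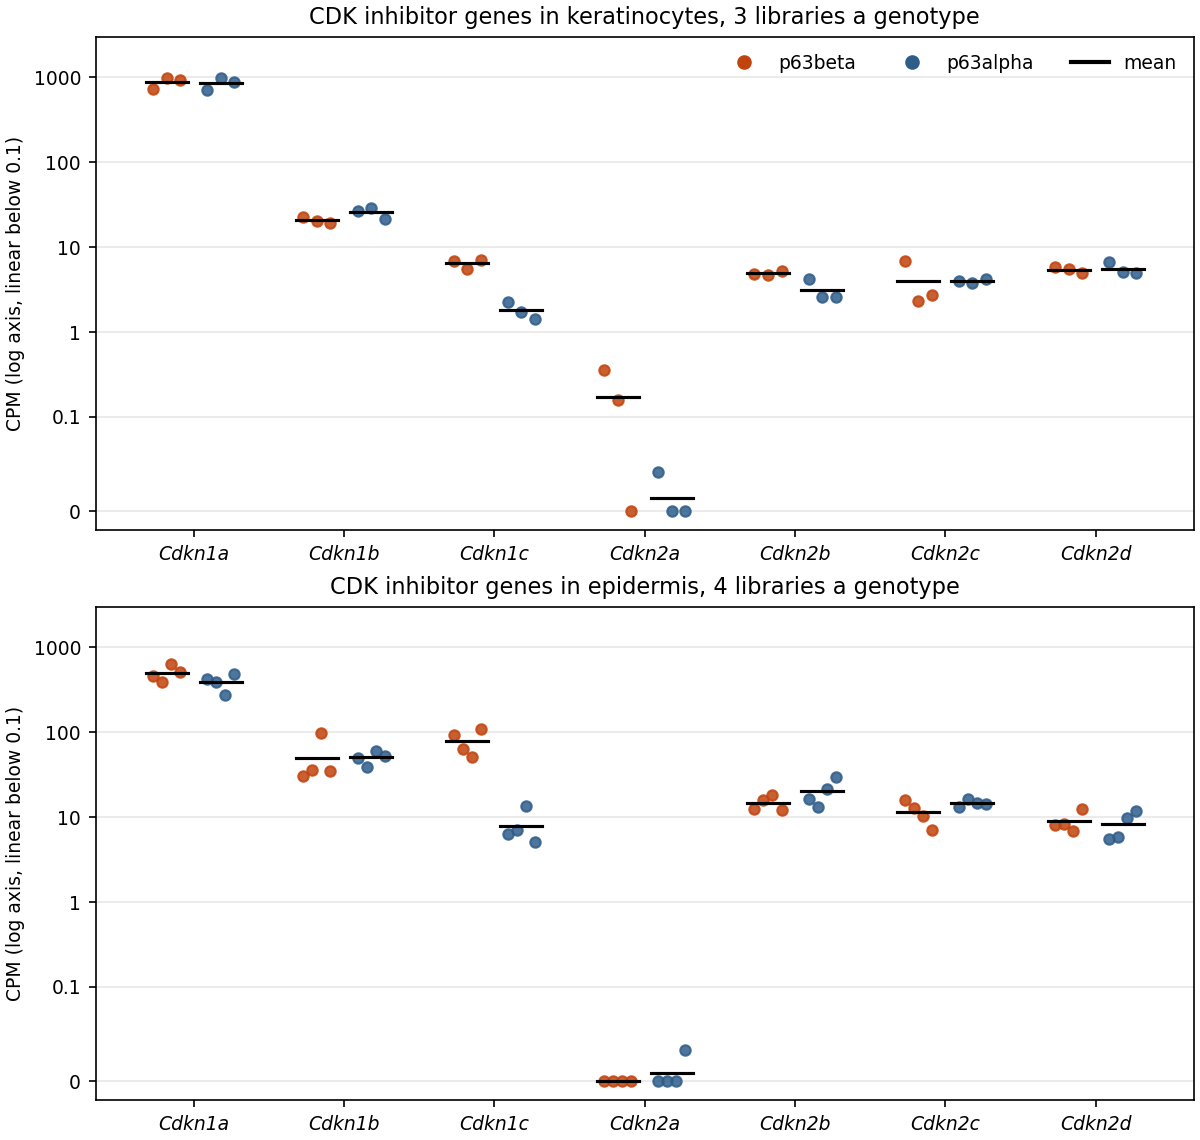
CPM of each CDK inhibitor gene in each library of keratinocytes (top) and epidermis (bottom), p63beta in red and p63alpha in blue, on a log axis that is linear below 0.1; black lines are group means. Cdkn1c separates the genotypes in both panels, with epidermis means of 78.9 CPM in p63beta and 7.95 CPM in p63alpha, while Cdkn1a lies highest in both panels with overlapping genotypes.

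The estimated Cdkn1c effect in epidermis exceeded that in keratinocytes by 1.49 ± 0.47 on the log2 scale (SE), a difference that was not called. In the joint edgeR fit of all 14 libraries this difference had an unadjusted p of 0.00751 and an adjusted p of 0.9999 over 14655 genes. No gene was called for such a difference (0%), with 618 genes at an unadjusted p under 0.05. The systems were counted by different methods, so system and counting cannot be told apart in this comparison.

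Cdkn1c lies on chromosome 7 at chr7:143458339-143461050, on the minus strand (mm10). Of its 2 listed transcripts, NM_009876 carried most of the RNA and was called on its own. It stood at 77.2 TPM in EP10, 53.3 in EP11, 40.9 in EP12 and 69.5 in KO2 of p63beta, against 5.51 TPM in EP07, 6.70 in EP08, 11.8 in EP09 and 3.88 in WT3 of p63alpha. Its log2 fold change was 3.27 ± 0.35 (SE) with an edgeR adjusted p of 0.0224 over 18270 transcripts, of which 10, or 0.0547%, were called (0.0438% higher in p63beta). This call is narrow: leaving out 1 library at a time kept the log2 fold change between 3.08 and 3.58 but lost the call in 6 of 8 cases. Those without EP07, EP08, WT3, KO2, EP10 and EP11 gave edgeR adjusted p of 0.139, 0.163, 0.0993, 0.0860, 0.115 and 0.0676.

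The rarer of the pair, NM_001161624, stood at 8.79, 5.27, 5.55 and 11.01 TPM in EP10, EP11, EP12 and KO2 of p63beta. It stood at 0.266, 0.533, 1.99 and 0.165 TPM in EP07, EP08, EP09 and WT3 of p63alpha. The groups did not overlap, as in 1.52% of transcripts higher in p63beta, and the log2 fold change was 3.62 ± 0.79 (SE) with an edgeR adjusted p of 0.447. NM_001161624 made up 11.2% ± 2.04 of the Cdkn1c TPM in p63beta epidermis and 7.62% ± 4.77 in p63alpha epidermis (SD, n = 4 each; two-sided exact permutation p = 0.2, adjusted p = 0.3). The split of Cdkn1c between its transcripts was therefore not shown to differ.

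Cdkn1c sits in an imprinted cluster, in which the long RNA Kcnq1ot1 is known to silence neighbours on the paternal chromosome. None of the listed neighbours was called in either system. In epidermis 9 of 12 were tested, 5 with a positive log2 fold change, and the median was 0.06, against a median over all genes tested of -0.0039. Kcnq1ot1 stood at 4.79 ± 2.23 CPM in p63beta epidermis and 3.24 ± 1.65 CPM in p63alpha epidermis (SD, n = 4 each), with a difference of 0.57 on the log2 scale and an edgeR adjusted p of 0.9999. Kcnq1 had the lowest p among the neighbours in epidermis, at low levels of 0.663 ± 0.428 CPM in p63beta and 0.219 ± 0.184 CPM in p63alpha. Its groups overlapped, and its log2 fold change was 1.62 ± 0.72 (SE), with an edgeR unadjusted p of 0.0479 and adjusted p of 0.9999. Phlda2, a placental growth regulator in the same cluster, had 3.87 ± 1.72 CPM in p63beta epidermis and 3.41 ± 1.17 CPM in p63alpha epidermis. In keratinocytes 7 of 12 neighbours were tested, 4 with a positive log2 fold change, and their median was 0.01. Kcnq1ot1 had 3.40 ± 0.61 CPM in p63beta keratinocytes and 3.04 ± 1.08 CPM in p63alpha keratinocytes (SD, n = 3 each). Kcnq1ot1 overlaps Kcnq1 on the other strand, and no source used here says whether the epidermis estimates used strand. Of 16 imprinted growth genes elsewhere in the genome, 15 were tested in each system and none was called. Igf2r, which clears insulin-like growth factor 2, had the lowest p among them in epidermis, with 74.2 ± 11.8 CPM in p63beta and 48.8 ± 4.52 CPM in p63alpha and an edgeR adjusted p of 0.332.

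Across libraries, the genes whose pattern was most like that of Cdkn1c were Nid2, Antxr1 and Pgm2l1. Likeness was the mean of the Pearson correlations of log2 CPM within the 6 keratinocyte and the 8 epidermis libraries, over 9299 genes, and it was 0.965, 0.964 and 0.941 for these genes. The correlations share the libraries and include the difference between the genotypes. Nid2, a basement membrane glycoprotein, had 156 ± 18.6 CPM in p63beta epidermis and 2.07 ± 0.70 CPM in p63alpha epidermis (SD, n = 4 each). Antxr1, a collagen-binding receptor for anthrax toxin, had 121 ± 16.3 CPM in p63beta epidermis and 77.7 ± 12.7 CPM in p63alpha epidermis.

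**Figure D2:**
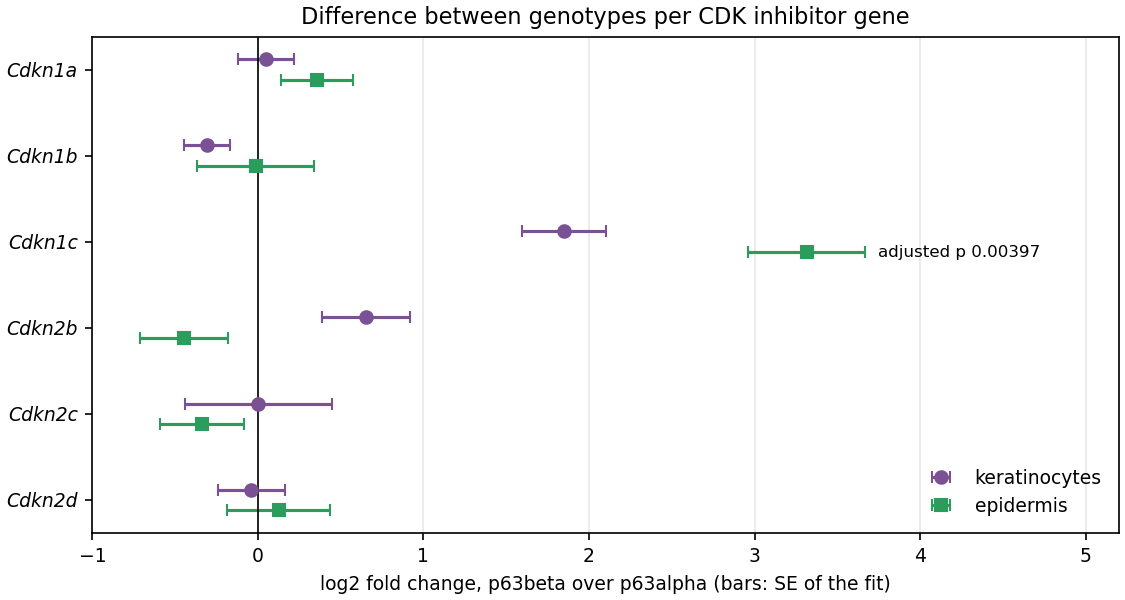
Log2 fold change of p63beta over p63alpha (horizontal axis) for the 6 CDK inhibitor genes tested, in keratinocytes (purple circles) and epidermis (green squares); bars are the SE of the fit. Cdkn1c stands at 1.85 in keratinocytes and 3.31 in epidermis, the other genes between -0.45 and 0.65, and only the epidermis value of Cdkn1c is called.

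Cdkn1a encodes p21, the inhibitor that p53 induces after DNA damage, and it was by far the most abundant CDK inhibitor RNA in both systems. It did not pass the test in either system. In keratinocytes it stood at 724, 986 and 923 CPM in p63beta replicates 1, 2 and 3, against 705, 971 and 869 CPM in p63alpha replicates 1, 2 and 3. The values ran together within a replicate number, with p63beta to p63alpha ratios of 1.03, 1.02 and 1.06. The log2 fold change was 0.05 ± 0.17 (SE), with an edgeR adjusted p of 0.984. In epidermis it stood at 465, 392, 644 and 513 CPM in EP10, EP11, EP12 and KO2 of p63beta, against 428, 386, 273 and 484 CPM in EP07, EP08, EP09 and WT3 of p63alpha. The groups overlapped, with EP12 the highest and EP09 the lowest, and the log2 fold change was 0.36 ± 0.22 (SE) with an edgeR adjusted p of 0.9999.

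Cdkn1a has 2 annotated starts on chromosome 17, 2790 bases apart, and epidermis transcripts from both were listed. The 250 bases before each start are shown because RNA from each start was estimated separately and p63 and p53 are known to act on this gene. They are RefSeq sequences of the GRCm38.p6 build, plus strand, 5′ to 3′, with chr17:29090729-29090978 before the upstream start (NM_001111099) and chr17:29093519-29093768 before the main start (NM_007669). Capitals mark each match to the p53/p63 consensus half-site, searched on both strands.
NM_001111099: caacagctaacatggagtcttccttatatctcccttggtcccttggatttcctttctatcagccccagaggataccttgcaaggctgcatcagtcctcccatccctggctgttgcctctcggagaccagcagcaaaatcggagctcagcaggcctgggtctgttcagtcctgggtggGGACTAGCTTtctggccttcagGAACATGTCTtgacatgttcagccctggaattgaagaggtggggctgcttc
NM_007669: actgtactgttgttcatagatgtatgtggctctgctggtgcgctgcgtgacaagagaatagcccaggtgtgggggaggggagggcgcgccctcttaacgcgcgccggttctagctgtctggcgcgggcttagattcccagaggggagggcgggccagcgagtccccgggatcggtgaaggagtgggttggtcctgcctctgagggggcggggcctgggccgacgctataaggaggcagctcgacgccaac

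The upstream window holds 2 half-sites, whose first bases lie at -73 and -51 from the start, and 3 copies of the core CATG, 1 of which lies within a half-site. The window of the main start holds neither. Of 32851 promoters in the RefSeq table, 7.13% hold at least 1 half-site in the same 250 bases, 0.259% hold 2 or more and 53.9% hold CATG. Of the other CDK inhibitor promoters listed, that of Cdkn2d has 1 half-site at -102. Those of Cdkn1b, Cdkn2a, Cdkn2b and Cdkn2c have none in the windows listed. The Cdkn2d window, before a start at 21291209, and the Cdkn2c window before 109666756 were not matched to a listed transcript. No window was matched to NM_001301368 of Cdkn2c. The table has entries for 6 of the 7 genes, with Cdkn1c the gene not matched. These matches describe letters in the sequence and do not show binding.

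The main-start transcript NM_007669 averaged 429 ± 95.2 TPM in p63beta epidermis and 360 ± 53.3 TPM in p63alpha epidermis (SD, n = 4 each), with a log2 fold change of 0.32 ± 0.22 (SE). The upstream-start transcript NM_001111099 was rarer and varied more. It stood at 13.9, 5.86, 18.4 and 2.16 TPM in EP10, EP11, EP12 and KO2 of p63beta, against 4.66, 1.45, 1.55 and 0.135 TPM in EP07, EP08, EP09 and WT3 of p63alpha. The groups overlapped through KO2 and EP07, and within each style of column name the p63beta values were the higher ones. The log2 fold change was 2.43 ± 0.96 (SE), with an unadjusted p of 0.0334 and an edgeR adjusted p of 0.9999 over all transcripts. As a share of Cdkn1a TPM it was 2.14% ± 1.28 in p63beta epidermis and 0.535% ± 0.485 in p63alpha epidermis (SD, n = 4 each; two-sided exact permutation p = 0.0571, adjusted p = 0.171 over 6 transcripts). The smallest p this design allows is 0.0286.

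Genes of the p53 response beside Cdkn1a gave no call in either system. In epidermis 10 of 11 tested had positive fold changes (log2 median 0.29), and in keratinocytes 8 of 12 did (log2 median 0.17). Eda2r, a receptor of the tumour necrosis factor family and a p53 target, had 4.08 ± 0.50 CPM in p63beta epidermis and 1.27 ± 0.56 CPM in p63alpha epidermis (SD, n = 4 each), without overlap and with an edgeR adjusted p of 0.195. In keratinocytes Eda2r had 68.8 ± 21.1 CPM in p63beta and 40.8 ± 12.7 CPM in p63alpha (SD, n = 3 each), with an edgeR adjusted p of 0.730. Mdm2, the ligase that degrades p53, had 256 ± 40.4 CPM in p63beta keratinocytes and 185 ± 24.7 CPM in p63alpha keratinocytes, without overlap and with an edgeR adjusted p of 0.612. For scale, here and in the lists below, 12.3% of all genes tested in keratinocytes and 3.07% in epidermis did not overlap between the genotypes.

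Cdkn1b, which encodes p27 and lies at chr6:134920401-134925525 on the plus strand (mm10), was not called in either system. In keratinocytes it stood at 22.6, 20.1 and 19.3 CPM in p63beta replicates 1, 2 and 3, against 26.6, 28.7 and 21.4 CPM in p63alpha replicates 1, 2 and 3. Each p63beta library was below the p63alpha library of the same number, but p63beta replicate 1 lay above p63alpha replicate 3. The log2 fold change was -0.31 ± 0.14 (SE), with an edgeR adjusted p of 0.751. In epidermis Cdkn1b stood at 30.5, 36.3, 98.5 and 34.9 CPM in EP10, EP11, EP12 and KO2 of p63beta, against 50.2, 38.5, 60.2 and 52.9 CPM in EP07, EP08, EP09 and WT3 of p63alpha. EP12 lay above every other library, and the remaining 3 p63beta libraries lay below every p63alpha library. With EP12 the log2 fold change was -0.01 ± 0.36 (SE), and without it -0.58 ± 0.19 with an edgeR adjusted p of 0.413. EP12 also had the lowest sum of the 16 proliferation markers in p63beta epidermis, 374 CPM against a group median of 873 CPM, and the lowest sum of basal keratinocyte markers, 8834 CPM against a group median of 18955 CPM. Its sums of suprabasal (118263 CPM), melanocyte (338 CPM) and hair follicle markers (97.2 CPM) were likewise the lowest in p63beta epidermis. Its sum of immune markers (145 CPM) was the highest there. WT3 of p63alpha had a basal sum of 9322 CPM with Cdkn1b at 52.9 CPM. The part of these in the Cdkn1b value was not tested. The gene most like Cdkn1b over the libraries was Krt80, a keratin of differentiating epithelium, with a likeness of 0.964. This likeness is the highest found over 9299 genes in few libraries, and it includes the outlying EP12.

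Among the INK4 genes none was called in either system. On mm10 Cdkn2a (chr4:89274473-89294619) and Cdkn2b (chr4:89306289-89311032) are neighbours. Cdkn2c lies farther along at chr4:109660876-109665372 and Cdkn2d at chr9:21288463-21291209, and all of these are on the minus strand. The spans are those counted in keratinocytes. For NM_001301368 of Cdkn2c the matched Gencode transcript starts farther upstream, at 109667189, outside the span counted in keratinocytes. Cdkn2a, which encodes p16 and, from another first exon, p19Arf, was at the edge of detection. Its read pairs numbered 10, 4 and 0 in p63beta keratinocyte replicates 1, 2 and 3, against 1, 0 and 0 in p63alpha replicates 1, 2 and 3. A count of 0 allows up to 0.103 CPM in p63beta replicate 3. In epidermis 0 counts were listed in all p63beta libraries, and 1 count in WT3 and 0 in the other p63alpha libraries. That count belonged to NM_001040654, while NM_009877 was listed at 0 in every library. Cdkn2a was below the filter on low counts in both systems and was not tested.

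Cdkn2b, which encodes p15 and is known as a target of transforming growth factor beta, stood on opposite sides of 0 in keratinocytes and epidermis. In keratinocytes it had 4.81, 4.68 and 5.18 CPM in p63beta replicates 1, 2 and 3, against 4.199, 2.56 and 2.57 CPM in p63alpha replicates 1, 2 and 3. The groups did not overlap, with 6.51% of all genes higher in p63beta in this way, and p63alpha replicate 1 came closest. The log2 fold change was 0.65 ± 0.27 (SE), with an edgeR adjusted p of 0.715. In epidermis Cdkn2b had 12.5, 15.7, 18.4 and 12.2 CPM in EP10, EP11, EP12 and KO2 of p63beta, against 16.5, 13.0, 21.3 and 29.3 CPM in EP07, EP08, EP09 and WT3 of p63alpha. The groups overlapped, with WT3 the highest, and the log2 fold change was -0.45 ± 0.27 (SE) with an edgeR adjusted p of 0.9999. Without WT3 it was -0.21, and over the EP libraries alone -0.13. The difference between the effects, epidermis minus keratinocytes, was -1.09 ± 0.40 on the log2 scale (SE), with an unadjusted p of 0.0161 and an edgeR adjusted p of 0.9999. Mtap, which lies beside this gene cluster, was not called in either system, with log2 fold changes of 0.14 in keratinocytes and 0.23 in epidermis.

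Cdkn2c, which encodes p18, was decided by single libraries in keratinocytes. It had 6.86, 2.30 and 2.73 CPM in p63beta replicates 1, 2 and 3, against 3.95, 3.75 and 4.19 CPM in p63alpha replicates 1, 2 and 3. One p63beta library lay above every p63alpha library and the other two below, so the log2 fold change of 0.00 ± 0.44 (SE) averages opposite values. Without p63beta replicate 1 it was -0.65 ± 0.24, with an edgeR adjusted p of 0.495. In epidermis Cdkn2c had 16.0, 12.9, 10.3 and 7.03 CPM in EP10, EP11, EP12 and KO2 of p63beta, against 13.1, 16.4, 14.6 and 14.4 CPM in EP07, EP08, EP09 and WT3 of p63alpha. The p63alpha values were close together and the p63beta values spread around and below them, with a log2 fold change of -0.34 ± 0.25 (SE). Its transcript NM_001301368 made up 81.7% ± 9.38 of the Cdkn2c TPM in p63beta epidermis and 71.2% ± 16.0 in p63alpha epidermis (SD, n = 4 each; two-sided exact permutation p = 0.343, adjusted p = 0.343). The other transcript, NM_007671, had 1.89 ± 1.09 TPM in p63beta epidermis and 4.25 ± 2.40 TPM in p63alpha epidermis.

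Cdkn2d, which encodes the INK4 protein p19, was nearly level in both systems. It averaged 5.44 ± 0.50 CPM in p63beta keratinocytes and 5.59 ± 0.99 CPM in p63alpha keratinocytes (SD, n = 3 each), so the log2 fold change was -0.04 ± 0.20 (SE). In epidermis it averaged 8.96 ± 2.40 CPM in p63beta and 8.22 ± 3.10 CPM in p63alpha (SD, n = 4 each), so the log2 fold change was 0.13 ± 0.31 (SE). The edgeR adjusted p was 0.991 in keratinocytes and 0.9999 in epidermis.

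**Figure D3:**
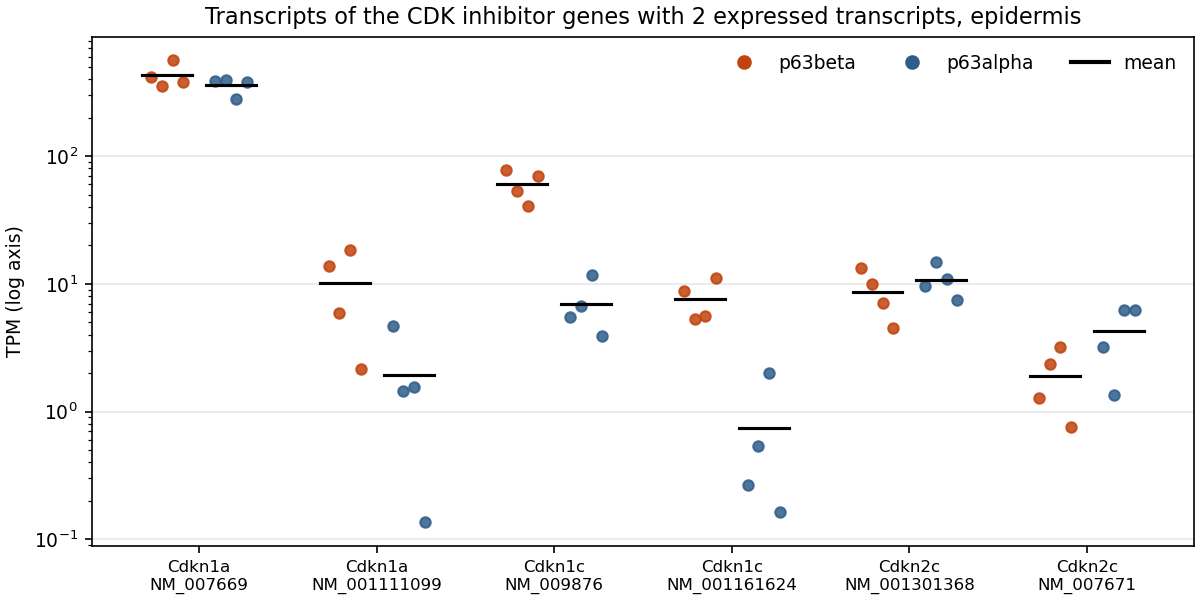
TPM (log axis) in each epidermis library for the transcripts of Cdkn1a, Cdkn1c and Cdkn2c, p63beta in red and p63alpha in blue; black lines are group means. Both Cdkn1c transcripts separate the genotypes, with NM_009876 at 40.9 to 77.2 TPM in p63beta and 3.88 to 11.8 TPM in p63alpha, while both transcripts of Cdkn2c and both of Cdkn1a overlap.

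Per length, Cdkn1a stood first in every group and Cdkn2a last, and Cdkn1c moved most in the order between. In keratinocytes Cdkn1a averaged 431 ± 59.4 FPKM, a level per length of transcript, in p63beta and 420 ± 70.3 FPKM in p63alpha (SD, n = 3 each). Cdkn1b came next, at 8.57 ± 0.93 FPKM in p63beta and 10.6 ± 1.49 FPKM in p63alpha. Below it Cdkn2d, Cdkn2c, Cdkn2b and Cdkn1c followed in this order in both genotypes. In p63beta keratinocytes the ranges of these 4 neighbours overlapped, with means of 4.28 FPKM for Cdkn2d to 3.34 FPKM for Cdkn1c. In p63alpha keratinocytes no neighbours overlapped, and Cdkn1c stood at 0.925 ± 0.198 FPKM.

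In p63beta epidermis the order by mean TPM was Cdkn1a at 440, Cdkn1c at 67.9, Cdkn1b at 34.5, Cdkn2b at 18.5, Cdkn2d at 12.2 and Cdkn2c at 10.6. Only Cdkn1a and Cdkn1c, and Cdkn2c and Cdkn2a, were neighbours without overlap there. In p63alpha epidermis it was Cdkn1a at 362, Cdkn1b at 36.8, Cdkn2b at 26.1, Cdkn2c at 15.0, Cdkn2d at 12 and Cdkn1c at 7.70. Cdkn1c thus ranked next to Cdkn1a in p63beta epidermis and below all but Cdkn2a in p63alpha epidermis, where its range overlapped that of Cdkn2d. Of the summed TPM of the 7 genes, Cdkn1c made up 12.2% ± 4.25 in p63beta epidermis and 1.74% ± 1.12 in p63alpha epidermis (SD, n = 4 each). Cdkn1a made up 75.05% ± 2.31 in p63beta epidermis and 78.4% ± 6.40 in p63alpha epidermis. In keratinocytes Cdkn1c made up 0.748% ± 0.178 of the summed FPKM in p63beta and 0.217% ± 0.081 in p63alpha (SD, n = 3 each). Levels were not compared between the systems.

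**Figure D4:**
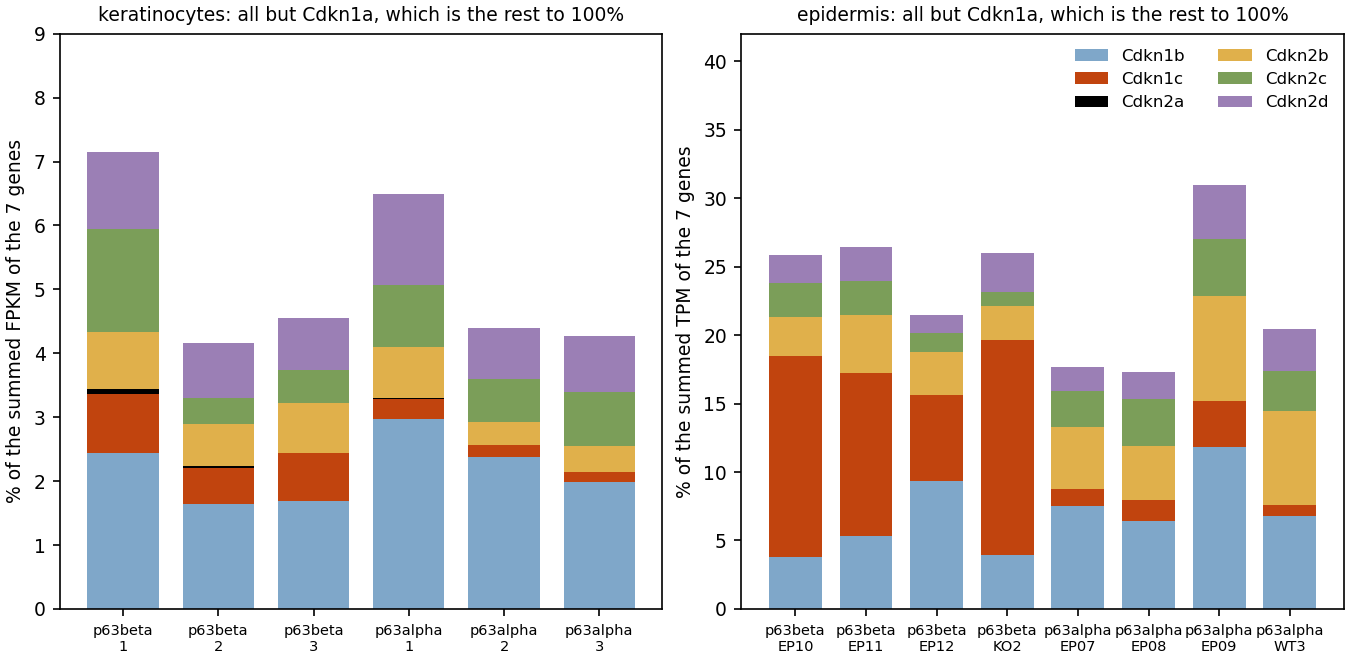
Share (%) of each gene other than Cdkn1a in the summed FPKM (keratinocytes, left) or TPM (epidermis, right) of the 7 CDK inhibitor genes, 1 bar a library with p63beta left of p63alpha; the axes of the panels differ. The red Cdkn1c segment averages 12.2% in p63beta epidermis and 1.74% in p63alpha epidermis, and Cdkn1a fills the rest of each bar to 100%.

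The kinases and cyclins that the inhibitors act on gave no call. In keratinocytes 7 of 9 G1 and S phase genes had positive fold changes (log2 median 0.19), and in epidermis 5 of 9 did (log2 median 0.03). Ccnd2, cyclin D2, had 1068 ± 178 CPM in p63beta keratinocytes and 728 ± 138 CPM in p63alpha keratinocytes (SD, n = 3 each), with an edgeR adjusted p of 0.612. Ccnd3, cyclin D3, had 164 ± 28.8 CPM in p63beta epidermis and 117 ± 18.9 CPM in p63alpha epidermis (SD, n = 4 each), without overlap and with an edgeR adjusted p of 0.820. Cdk4, the kinase that INK4 proteins bind, had 208 ± 4.49 CPM in p63beta keratinocytes and 189 ± 2.63 CPM in p63alpha keratinocytes, without overlap and with an edgeR adjusted p of 0.756. The 4 G2 and M phase genes had negative log2 fold changes in keratinocytes, with a median of -0.20, and positive ones in epidermis, with a median of 0.17, and none was called.

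Downstream of the kinases, the pocket proteins and E2F factors gave no call among 13 tested in each system. E2f2, an activator of S phase genes, had 15.8 ± 1.18 CPM in p63beta keratinocytes and 27.1 ± 7.22 CPM in p63alpha keratinocytes (SD, n = 3 each), without overlap and with an edgeR adjusted p of 0.448. In epidermis E2f2 had 29.4 ± 11.6 CPM in p63beta and 22.2 ± 6.85 CPM in p63alpha (SD, n = 4 each), with overlap. Of 16 proliferation markers such as Mki67 and Top2a, 7 had positive fold changes in keratinocytes and 6 in epidermis. Their log2 median was -0.04 in both systems, and none was called. They summed to 1454 to 1894 CPM in p63beta keratinocytes and 1424 to 2054 CPM in p63alpha keratinocytes. In epidermis they summed to 374 to 1311 CPM in p63beta and 601 to 1298 CPM in p63alpha. The rise of Cdkn1c in epidermis thus stood beside proliferation marker levels that overlapped between the genotypes.

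Among 18 regulators of inhibitor transcription, 1 was called in keratinocytes and 0 in epidermis, against 0.101% and 0.232% of all genes tested. Trp73, the p53 relative p73, rose to 10.7 ± 1.06 CPM in p63beta keratinocytes, against 2.31 ± 0.24 CPM in p63alpha keratinocytes (SD, n = 3 each), with a log2 fold change of 2.21 ± 0.18 (SE) and an edgeR adjusted p of 0.0297. Leaving out any 1 of the 6 keratinocyte libraries kept the Trp73 log2 fold change between 2.13 and 2.30 but ended the call, with edgeR adjusted p of 0.0661 to 0.278. In epidermis Trp73 had 64.4 ± 29.3 CPM in p63beta and 26.3 ± 13.8 CPM in p63alpha (SD, n = 4 each), with overlap and an edgeR adjusted p of 0.730. Foxo1, a transcription factor known to induce Cdkn1b, had 40.6 ± 4.01 CPM in p63beta keratinocytes and 29.6 ± 1.97 CPM in p63alpha keratinocytes, and 60.9 ± 15.5 CPM in p63beta epidermis and 36.7 ± 7.11 CPM in p63alpha epidermis. Foxo1 did not overlap in either system, and its edgeR adjusted p was 0.409 in keratinocytes and 0.505 in epidermis. Without overlap, 4 of the 18 genes were higher in p63beta keratinocytes and 1 lower, and 3 higher and 0 lower in epidermis. Over all genes tested, 12.3% in keratinocytes and 3.07% in epidermis did not overlap. Id1 had the lowest p of the list in epidermis, with an edgeR adjusted p of 0.347. It had 37.5 ± 8.98 CPM in p63beta epidermis and 18.9 ± 6.06 CPM in p63alpha epidermis, without overlap. Myc, which represses several of these genes, had 176 ± 32.4 CPM in p63beta epidermis and 115 ± 28.6 CPM in p63alpha epidermis, without overlap and with an edgeR adjusted p of 0.726. The 10 tested genes of inhibitor degradation and stability had 3 positive log2 fold changes in keratinocytes and 4 in epidermis, with a median of -0.03 in both and no call. Skp2, which marks p27 for degradation, had 14.8 ± 1.52 CPM in p63beta keratinocytes and 12.4 ± 2.88 CPM in p63alpha keratinocytes, and 8.11 ± 4.04 CPM in p63beta epidermis and 8.90 ± 3.98 CPM in p63alpha epidermis.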

How the data were processed

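RNA was poly(A)-selected and stranded, per the labels' protocols. The keratinocyte counts deposited by the authors are read pairs per gene, made with featureCounts 1.5.2 at strand setting 2 and a minimum overlap of 25 bases, per the file headers, and FPKM values, which recomputation from counts and lengths gave back. For epidermis the authors deposited expected counts and TPM per gene and per transcript from Salmon, per the submitters' processing notes; expected counts were rounded here. The build was mm10, per the submitters' processing notes. The authors also deposited DESeq2 tables of log2 fold changes, shrunken in keratinocytes per the file headers, with adjusted p-values; 14 columns of normalised values in them were not used.

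Keratinocytes and epidermis had separate fits in edgeR 4.0.16 under R 4.3.3 (TMM, filterByExpr, robust quasi-likelihood F test), over all genes, with Benjamini-Hochberg adjustment and a call at an adjusted p under 0.05. The SE is the log2 fold change divided by the square root of F. The interaction of system and genotype was fitted over 14655 genes joined by Entrez ID, and transcripts were fitted in epidermis. Transcript shares were compared by exact permutation over 70 splits. The scripts were tested on simulated data, where 75% of genes changed 4-fold were recovered in keratinocytes, 75% in epidermis, 57% for the interaction and 28% for transcripts. Of genes changed 2-fold, 47% were recovered in keratinocytes, 25% in epidermis, 10% for the interaction and 5% for transcripts. A missing call therefore does not show equal levels. Each simulation changed 200 genes, more than edgeR called in these data, so recovery may be lower here. Unchanged genes called numbered 8 in keratinocytes, 9 in epidermis, 4 for the interaction and 3 for transcripts.

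The labels do not say that the keratinocyte replicate numbers pair the libraries. Same-numbered libraries deviated together, with correlations of 0.671, 0.557 and 0.387 over 10243 genes. Replicates 2 and 3 also deviated together across numbers: 0.301 for p63beta 2 with p63alpha 3, and 0.211 for p63beta 3 with p63alpha 2. A pairing is therefore clearest for replicate 1, and the replicate block was kept as an alternative. Alternatives were RLE size factors, no low-count filter, no robust estimation, DESeq2 1.42.0, limma 3.58.1 on log2 values of FPKM or TPM (pseudocounts 1 and 0.1), the replicate block, the style of column name and leaving out each library. The 7 genes and all lists were chosen with earlier results of these data known. Named genes were the 7 members, Trp63, called list genes, up to 3 per list and system by lowest p, and the 3 genes most like each member; the text names only part of these. Phlda2 lies outside that rule and was chosen after its values were seen. Intervals for 0 counts use a floor of 3 counts and cover counting error only.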

Additional observations from a re-analysis of the deposited data

Results flagged for a closer look

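Cdkn1b was far from the rest of its group in 1 library: EP12 had 98.5 CPM, while the other p63beta epidermis libraries had 30.5 to 36.3 CPM. Cdkn2a was at 0.0334 CPM in p63alpha epidermis library WT3, which is 1 count, with 0 in the other p63alpha libraries. These were 2 of 25 groups of 4 libraries looked at. Chance alone gives about 1 in 20 for measured values, a rate that does not apply to a single count among zeros.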

How the results depend on the processing

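Values are log2 fold changes of p63beta over p63alpha unless a count is named. In keratinocytes 14 genes were called in edgeR, against 211 in DESeq2, 37 with the replicate block, and 1 to 4 when 1 library was left out. Cdkn1c was called there by DESeq2 at 1.83 and not in the other alternatives tried, where its edgeR or limma adjusted p ran between 0.0744 and 0.681; without 1 library it lay between 1.71 and 2.02, and limma gave 1.17 with a pseudocount of 1, which understates changes of low genes, and 1.75 with 0.1. In keratinocytes the replicate block changed no call among the CDK inhibitors, but Cdkn2c stood at -0.17 under it. The near-zero keratinocyte value of Cdkn2c also turned negative with RLE size factors (-0.0060), without a low-count filter (-0.0046), in DESeq2 (-0.015) and in limma with a pseudocount of 1 (-0.11) or 0.1 (-0.17), and none of these passed the test. Without 1 library it ranged from -0.65 to 0.27, Cdkn1a from -0.088 to 0.17 and Cdkn2d from -0.11 to 0.095. In epidermis 32 genes were called, against 152 in DESeq2, 8 over the EP libraries alone and 10 to 28 without 1 library. Over the EP libraries alone Cdkn1c stood at 2.95, no longer called, and Cdkn1b at 0.15; the cause was not tested, and fewer samples enter that fit. Without 1 library Cdkn1c stayed called at 3.11 to 3.68, while Cdkn1b ranged from -0.58 to 0.16 and Cdkn2d from -0.081 to 0.36. For the difference between the effects, leaving out 1 library moved Cdkn1b between -0.25 and 0.49, Cdkn2c between -0.60 and 0.32, and Cdkn2d between -0.036 and 0.42, with no gene called. For transcripts, leaving out 1 library gave 5 to 11 calls, NM_009876 at 3.08 to 3.58, NM_009875 of Cdkn1b at -0.58 to 0.15 and NM_009878 of Cdkn2d at -0.093 to 0.35. No paired analysis was possible in epidermis because its columns carry no replicate number. Depth limits Cdkn2a above all, with at most 10 counts in a library. Of the listed genes, Trp73 alone was refitted: without 1 keratinocyte library it lay between 2.13 and 2.30 and lost its call each time. The remaining CDK inhibitor effects, transcripts and shares kept their direction and call in the alternatives tried; the marker sums, neighbours, gene lists and likeness values were not recomputed.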

Other observations

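The genes whose pattern was most like that of the remaining members were Ero1l for Cdkn1a, with a likeness of 0.942, Adora2b for Cdkn2b, with 0.917, Asf1a for Cdkn2c, with 0.839, and Cdc26 for Cdkn2d, with 0.887. Ero1l is an oxidase of the endoplasmic reticulum, Adora2b an adenosine receptor, Asf1a a histone chaperone and Cdc26 a subunit of the anaphase-promoting complex. Likeness is the mean of the correlations over the 6 keratinocyte and the 8 epidermis libraries, and carries no test. Each value is the highest found over 9299 genes.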
